A study of Mus musculus with 18 samples.

Results

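The respiratory chain and ATP synthase of the mitochondrion are built from subunits of both genomes, and 80 nuclear genes whose symbols begin with Nduf, Cox4 to Cox8, Uqcr or Atp5 are described here, of 14419 genes in the deposited table. Membership follows the symbol pattern alone and no measured value, although the genes and lists were chosen with earlier results of these data known. By role they were 7 core subunits of complex I, 29 of its accessory subunits, 5 of its assembly factors, 8 subunits of complex III, 13 of complex IV, the supercomplex factor Cox7a2l, 5 subunits of the F1 part of ATP synthase and 11 of its peripheral stalk and membrane part (Fo). The remaining gene, Cox4nb, matches the pattern but encodes a subunit of an endoplasmic reticulum membrane complex (now named Emc8), and no respiratory subunit. Ndufa4 is counted with complex IV, to which its protein is now assigned, and Atp5sl with complex I assembly.

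Complex I passes electrons from NADH to ubiquinone, complex III from ubiquinol to cytochrome c, and complex IV from cytochrome c to oxygen, and the protons they pump drive ATP synthase. Most subunits are made in the cytosol and imported, and core subunits carry the redox centres or the catalytic sites while the many small accessory subunits stabilise each complex. Haematopoietic stem cells are known for resting largely on glycolysis, with respiration taken up as they leave quiescence and differentiate.

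The RNA was that of haematopoietic cells, sorted out of bone marrow taken from adult male mice of the C57BL/6 strain with no transgene or mutation stated, in 6 groups of 3 libraries that the design text calls biological replicates. The groups were MPPs (multipotent progenitors) from mice given tamoxifen (a drug that modulates estrogen receptors) for 1 week and from mice given corn oil for 1 week, LT cells (long-term haematopoietic stem cells) given tamoxifen or corn oil for 2 weeks, and ST cells (short-term haematopoietic stem cells) given tamoxifen or corn oil for 2 weeks. LT, ST and MPP are read here in the field's usual way, and no label states the gates of the sort or the number of mice per library. MPPs differ from LT and ST cells in both population and duration of treatment, which cannot be told apart, and the titles number the ST libraries anew without saying whether they were prepared apart from the rest.

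Values are called normalised CPM here, a read count multiplied by a constant of the library so that the listed genes of a library sum to 900541 to 1149321, and the libraries held 2728800 to 5279821 reads in listed genes. Each gene was compared with limma on log2(value + 1), with p-values adjusted over all 14419 genes, and a change was called at an adjusted p below 0.05. Of 7 long-term stem cell markers 7 were lower, and of 5 multipotent progenitor markers 5 were higher, in MPP oil than in LT oil. The ST label was less marked, with 4 of the 7 lower and 3 of the 5 higher in ST oil than in LT oil, and 3 of the 7 lower, 1 of them higher and 3 of the 5 higher in MPP oil than in ST oil. LT tamoxifen library A stood apart from its group: mitochondrial ribosomal RNA took 25.5% of its reads, against 17.7% and 18.7% in LT tamoxifen libraries B and C. That share was 24.4% in ST tamoxifen library A and 17.7% to 22.2% in the remaining libraries of all groups. LT tamoxifen library A was the lowest of the 6 LT libraries for 46 of the 80 genes. In RNA of sorted bulk cells, fewer cells of a type and less RNA per cell cannot be told apart. Several of these genes have processed pseudogenes elsewhere in the mouse genome, and no label states how reads were shared among such copies.

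One gene dominated the set. Atp5b, which encodes the catalytic beta subunit of ATP synthase, averaged 704 normalised CPM per 1000 bases of its annotated principal transcript over the 18 libraries, against a median of 31.4 over the 80 genes. Next per length were Cox7c at 191, Ndufa4 at 163, the ATP synthase rotor subunit gamma gene Atp5c1 at 157 and the alpha subunit gene Atp5a1 at 141. In all, 12 of the 80 exceeded 100 normalised CPM per 1000 bases, and none of these 12 belonged to complex I. The lowest were Cox4i2 at 2.35, Ndufb4 at 5.33 and Ndufb2 at 5.87 on the same per-length scale, which depends on the annotated transcript being the one expressed.

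Summed over the 80 genes, the level was 4697, 4275 and 4525 normalised CPM in MPP tamoxifen and 3811, 3827 and 3873 in MPP oil. LT tamoxifen libraries A, B and C summed to 3965, 5051 and 5397, against 4299, 4434 and 4042 in LT oil. ST tamoxifen summed to 6880, 6098 and 6714, against 5723, 6633 and 5598 in ST oil. The ST libraries thus held the highest sums, the MPP groups did not overlap, and the LT and ST groups each overlapped with their oil group. Without Atp5b, the ST sums were 4942, 4405 and 4857 in ST tamoxifen and 4754, 5456 and 4412 in ST oil, and Atp5b alone took 27.7% to 28.2% of the 80-gene sum in ST tamoxifen libraries and 16.9% to 21.2% in ST oil libraries.

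**Figure D1:**
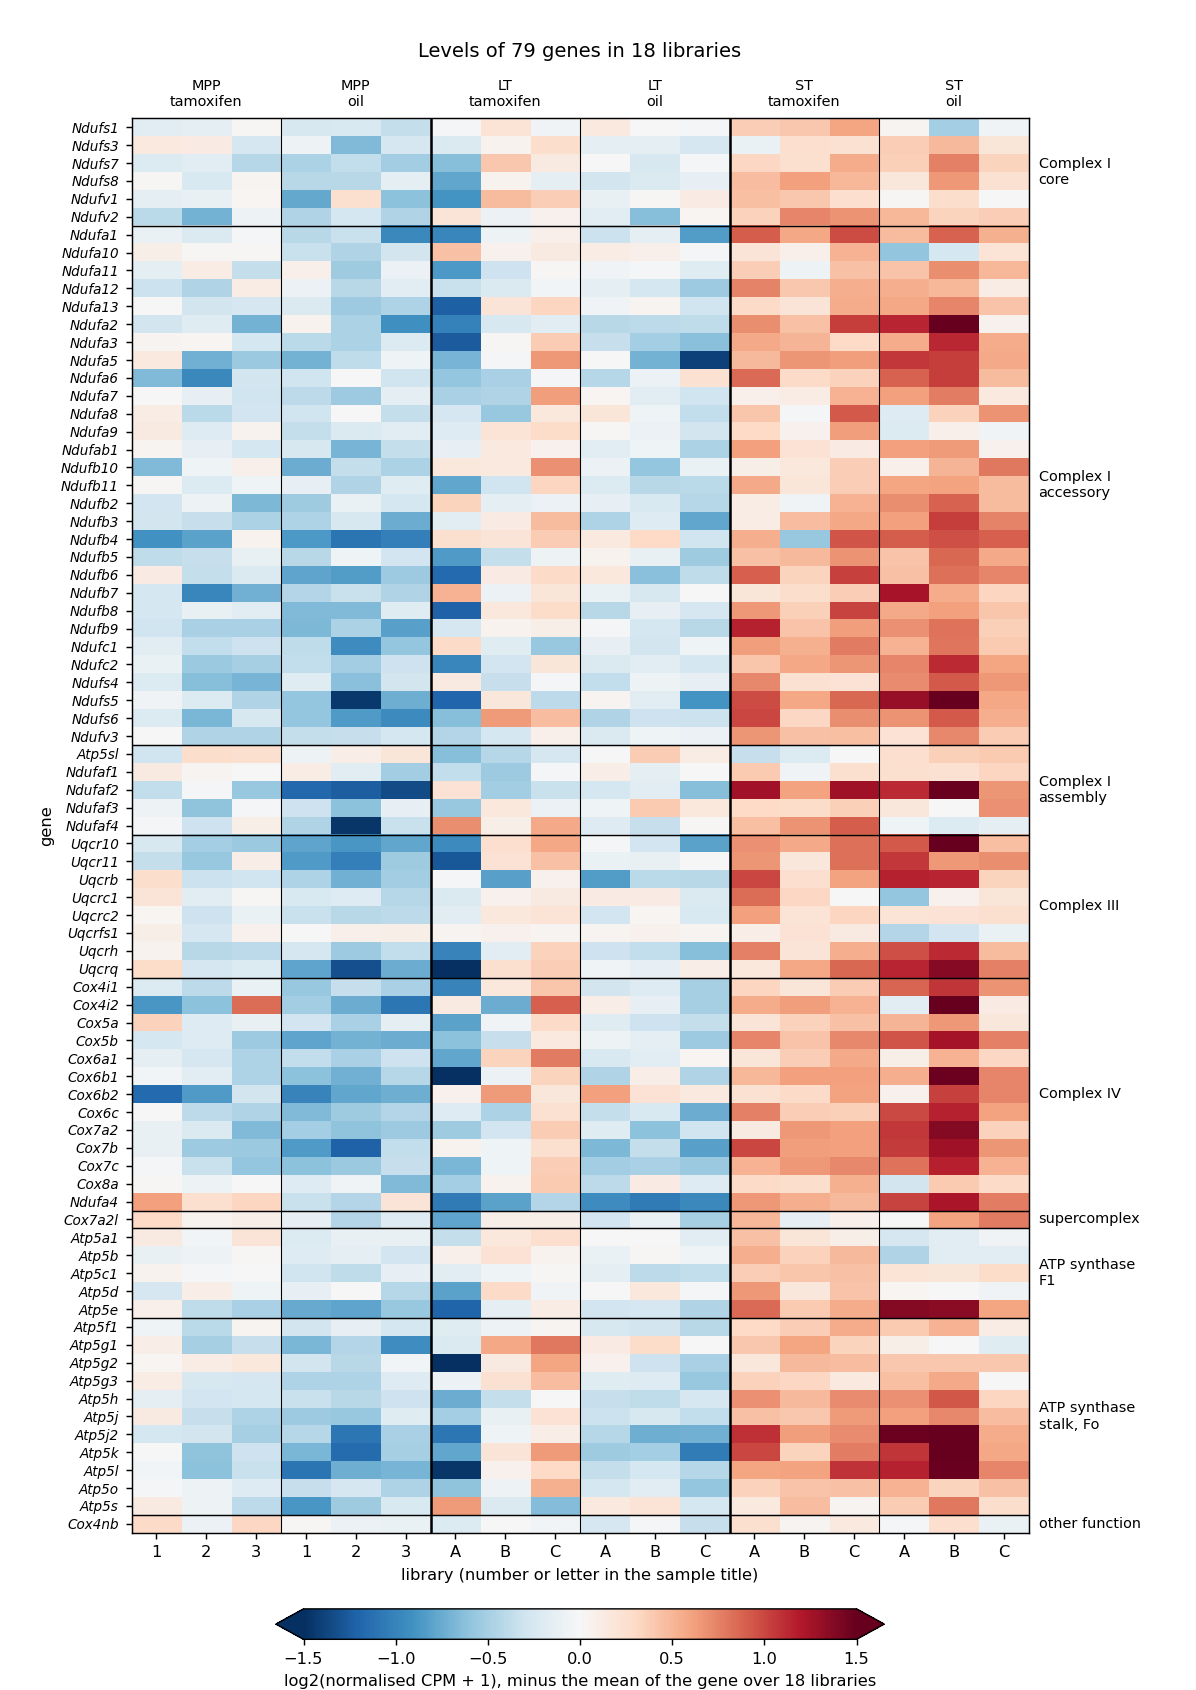
Levels of 79 of the 80 genes (rows, ordered by role) in the 18 libraries (columns, in 6 groups of 3), as log2(normalised CPM + 1) minus each gene's mean over the 18 libraries. The ST columns are mostly red in both treatments, the MPP oil columns mostly blue, and LT tamoxifen library A is blue for many genes where libraries B and C are not.

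The first question is how the populations differed in mice given oil. In ST oil, 52 of the 80 genes were higher than in LT oil and 0 were lower (limma), while 12.5% of all genes were higher and 16% lower. With no adjustment (p below 0.05) there were 57 higher and 0 lower, against 38.6% of all genes in either direction, and edgeR and DESeq2 on recovered reads each called 54 higher and 0 lower. The median log2 fold change of the 80 genes was 0.74, against 0.01 over all genes, and 72 lay above 0, against 50.5% of all genes. For 61 genes the 3 ST oil libraries lay above all 3 LT oil libraries, and for 2 below them, against 21.4% and 22.7% of all genes. Markers of other cells moved with this contrast: 8 of 15 erythroblast markers were lower, with sums of 627 to 844 normalised CPM in ST oil and 2172 to 2673 in LT oil, and 4 of 9 neutrophil markers were higher, with sums of 109 to 294 in ST oil and 33.6 to 85.2 in LT oil. Of 8 macrophage and monocyte markers 3 were higher, with sums of 535 to 743 in ST oil and 267 to 291 in LT oil. Of 3 T and NK cell markers 1 was higher, of 4 stroma and endothelium markers 1 was lower, and 0 of 5 B cell markers passed. None of these markers was at 0 reads in a group, and their part in the result was not tested.

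Complex IV stood highest by its median, with 9 of 13 subunits higher in ST oil and a median log2 fold change of 1.20. Ndufa4 had 178, 206 and 149.9 in ST oil, against 45.1, 41.6 and 44.2 in LT oil (normalised CPM), a log2 fold change of 1.99 ± 0.17 (SE) with a limma adjusted p of 3.81e-09. Cox7b, a small membrane subunit, had 121, 142 and 91.9 in ST oil and 36.0, 45.1 and 32.5 in LT oil, a log2 fold change of 1.61 ± 0.20. Every ST oil library exceeded every LT oil library for both genes.

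Cox5b, which carries a zinc ion on the matrix side of complex IV, had 88.0, 109 and 77.2 in ST oil, against 42.8, 40.8 and 30.8 in LT oil, a log2 fold change of 1.24 ± 0.19. The small subunit genes Cox6c and Cox7c were higher by 1.36 ± 0.20 and 1.36 ± 0.20 on the log2 scale. Cox5a, whose protein is a peripheral subunit on the matrix side, had 72.9, 80.7 and 57.3 in ST oil and 44.7, 41.1 and 39.7 in LT oil, a log2 fold change of 0.72 ± 0.21 with a limma adjusted p of 0.00916. The groups were separate for each of these genes named with library values.

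ATP synthase was split between its parts, whose transcripts had median lengths of 809 bases in the stalk and Fo and 1410 in F1. Length is described below. In the stalk and Fo, 8 of 11 genes were higher in ST oil, with a median log2 fold change of 0.76. Atp5j2, encoding subunit f of Fo, had 52.8, 54.5 and 27.4 in ST oil, against 13.4, 10.6 and 10.7 in LT oil, a log2 fold change of 1.81 ± 0.28. Atp5k (subunit e, which takes part in dimer formation) and Atp5h (subunit d of the stalk) were higher by 1.77 ± 0.32 and 0.97 ± 0.16 on the log2 scale.

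Of the 5 F1 genes, 2 were higher, the epsilon subunit gene Atp5e by 1.43 ± 0.26 and Atp5c1 by 0.52 ± 0.11. The catalytic pair did not pass in either direction. Atp5b had 969, 1176 and 1186 in ST oil and 1240.0, 1340.2 and 1271 in LT oil normalised CPM, a log2 fold change of -0.21 ± 0.11, and its ST oil libraries all lay below its LT oil libraries. Atp5a1 had a log2 fold change of -0.11, with a 95% interval of -0.39 to 0.17.

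Of the accessory subunits of complex I, 22 of 29 were higher in ST oil, with a median log2 fold change of 0.86, and of the core subunits 4 of 7, with a median of 0.52. Ndufs1, the large iron-sulphur subunit of the peripheral arm, had a log2 fold change of -0.22 with a 95% interval of -0.52 to 0.08. Among complex III subunits 5 of 8 were higher. The other 3 were the core protein gene Uqcrc1 and the Rieske iron-sulphur protein gene Uqcrfs1, with log2 fold changes of -0.12 and -0.32, and Uqcrq, with 1.11 and an adjusted p of 0.117. Of the 5 assembly factors, 1 was higher, Ndufaf2, a chaperone of late complex I assembly, by 1.44 ± 0.27. It had 28.5, 36.9 and 20.4 in ST oil, against 10.3, 11.2 and 7.66 in LT oil.

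Transcript length moved with this difference. The principal transcripts of the 80 genes had a median of 863 bases, against 2843 over all genes with a length, and across the 80 genes length and log2 fold change had a Spearman correlation of -0.62, given as a description. Short transcripts were higher in ST oil outside the set too: of 1336 other genes below 1000 bases, 28.1% were higher than in LT oil, with a median log2 fold change of 0.51. The 46 genes of the set below 1000 bases had a median of 1.00, and 37 of them were higher. Of the 9 with 2000 bases or more, 2 were higher, with a median of 0.04.

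With the length trend of all genes removed, 27 of the 80 genes were higher in ST oil than in LT oil and 2 were lower, Atp5b and Uqcrfs1, while 10.5% of 13693 genes with a length were then higher and 9.57% lower. Of the 52 genes higher before, 26 remained. They included Ndufa4, Cox7b, Cox6c, Cox5b, Cox7c, Atp5j2, Atp5h and Atp5k. The part of transcript length in the difference was not tested beyond this removal. The count was 37 to 58 when 1 library at a time was left out.

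**Figure D2:**
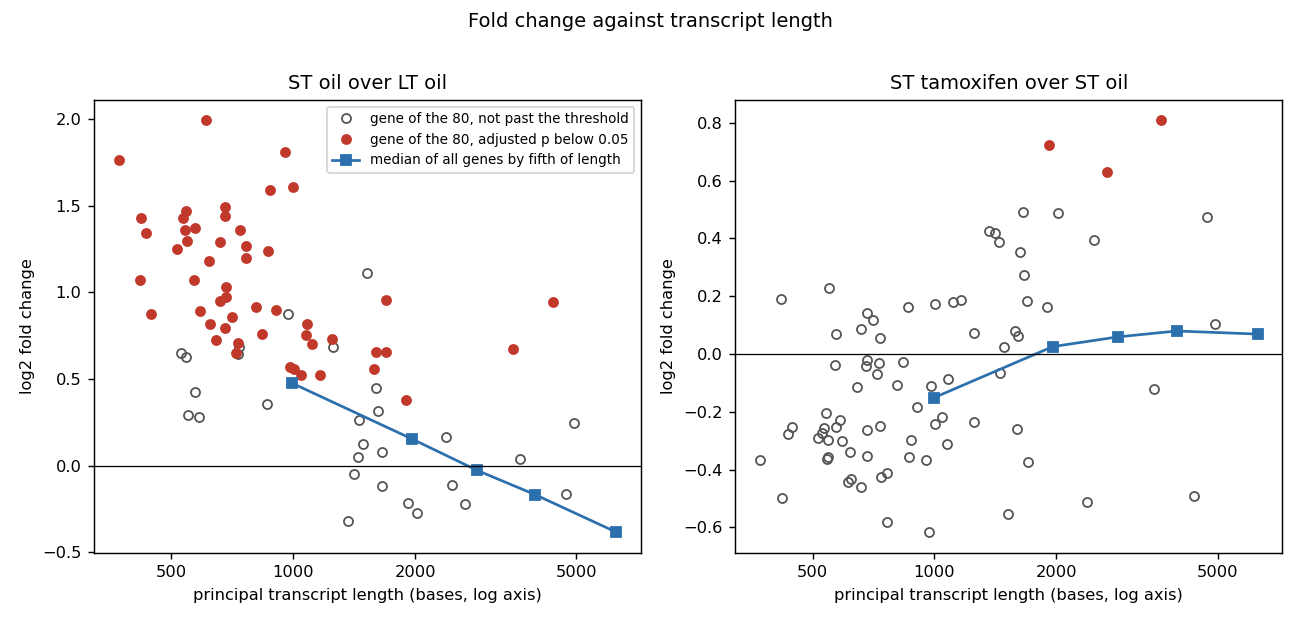
Log2 fold change (vertical axis) against principal transcript length in bases (log axis) for the 80 genes, with ST oil over LT oil on the left and ST tamoxifen over ST oil on the right; squares are medians of all genes in 5 equal classes of length. On the left the squares fall with length, at 0.48 in the shortest class and -0.38 in the longest, and the genes of the set below 1000 bases lie mostly above the squares; on the right the 3 called genes have lengths of 1916, 2661 and 3632 bases.

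MPP oil against ST oil gave the largest contrast of the set. None of the 80 genes was higher in MPP oil and 63 were lower (limma), while 16.8% of all genes were higher and 13.9% lower. At an unadjusted p below 0.05, 1 was higher and 66 were lower, against 41.1% of all genes in either direction, and edgeR and DESeq2 each called 0 higher and 62 lower. The median log2 fold change was -0.99, against -0.05 over all genes, and 3 of the 80 lay above 0, against 47% of all genes. For 68 genes all MPP oil libraries lay below all ST oil libraries and for 1 above, against 22.8% and 22.5% of all genes. In the same contrast 7 of 15 erythroblast markers were lower and 4 of 9 neutrophil markers higher. Of 8 macrophage and monocyte markers 2 were higher and 2 lower. Of 3 T and NK cell markers 1 was higher, and of 4 stroma and endothelium markers 1. The part of these markers was not tested. Cox5b had 25.8, 27.4 and 26.5 in MPP oil, against 88.0, 109 and 77.2 in ST oil, a log2 fold change of -1.73 ± 0.19 (limma adjusted p 1.41e-07). Every MPP oil library lay below every ST oil library.

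Ndufaf2 differed most, with 5.00, 4.73 and 4.36 in MPP oil normalised CPM, against 28.5, 36.9 and 20.4 in ST oil, a log2 fold change of -2.34 ± 0.27. The log2 fold change was -1.80 for Cox7b, -1.47 for Cox6c, -1.81 for Atp5e, -1.85 for Atp5j2, -1.28 for the complex I accessory gene Ndufb9 and -1.20 for Ndufa4. By role, 12 of 13 complex IV genes, 26 of 29 accessory genes of complex I, 10 of 11 stalk and Fo genes, 6 of 8 complex III genes and 2 of 5 F1 genes were lower. With the length trend removed, 37 genes stayed lower and 1 was higher, while 10.5% of 13693 genes were then lower and 9.76% higher.

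The 17 genes that did not pass in MPP oil against ST oil included the alpha, beta and delta subunit genes of F1 (Atp5a1, Atp5b and Atp5d), the complex I core subunit genes Ndufs1 and Ndufv1, the assembly factor genes Ndufaf1 and Ndufaf3, and Uqcrc1 and Uqcrfs1 of complex III. The comparisons of ST oil with LT oil and with MPP oil share the ST oil libraries, so their values are only given side by side. Atp5b had a log2 fold change of 0.05 in MPP oil over ST oil and -0.21 in ST oil over LT oil, Atp5a1 0.02 and -0.11, Ndufs1 -0.10 and -0.22, and Uqcrfs1 0.33 and -0.32.

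Fewer genes passed between MPP oil and LT oil. Of the 80 genes 1 was higher in MPP oil and 4 were lower (limma), while 7.76% of all genes were higher and 7.01% lower, and the median log2 fold change was -0.16. Of the 80, 13 lay above 0, against 48.3% of all genes, and 1 was higher and 12 lower at an unadjusted p below 0.05, against 25.3% of all genes in either direction. For 1 gene all MPP oil libraries lay above all LT oil libraries and for 23 below, against 18.3% and 19.1% of all genes. Of the markers, 9 of 15 for erythroblasts were lower and 7 of 9 for neutrophils higher. For macrophages and monocytes 4 of 8 were higher, and for T and NK cells 1 of 3. For stroma and endothelium 1 of 4 was higher and 2 were lower. The part of these markers was not tested. Ndufa4 had 69.1, 64.0 and 99.9 in MPP oil, against 45.1, 41.6 and 44.2 in LT oil, a log2 fold change of 0.79 ± 0.17, with the groups separate. The 4 lower genes were Cox6b2 (-1.16), Ndufb4 (-1.04), Ndufaf2 (-0.90) and Atp5g1 (-0.82). The number called was 2 without LT oil library A, 3 without LT oil library B or MPP oil library 2, and 9 without LT tamoxifen library A, which entered through the shared spread. The shares of all genes called in these fits are not given.

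**Figure D3:**
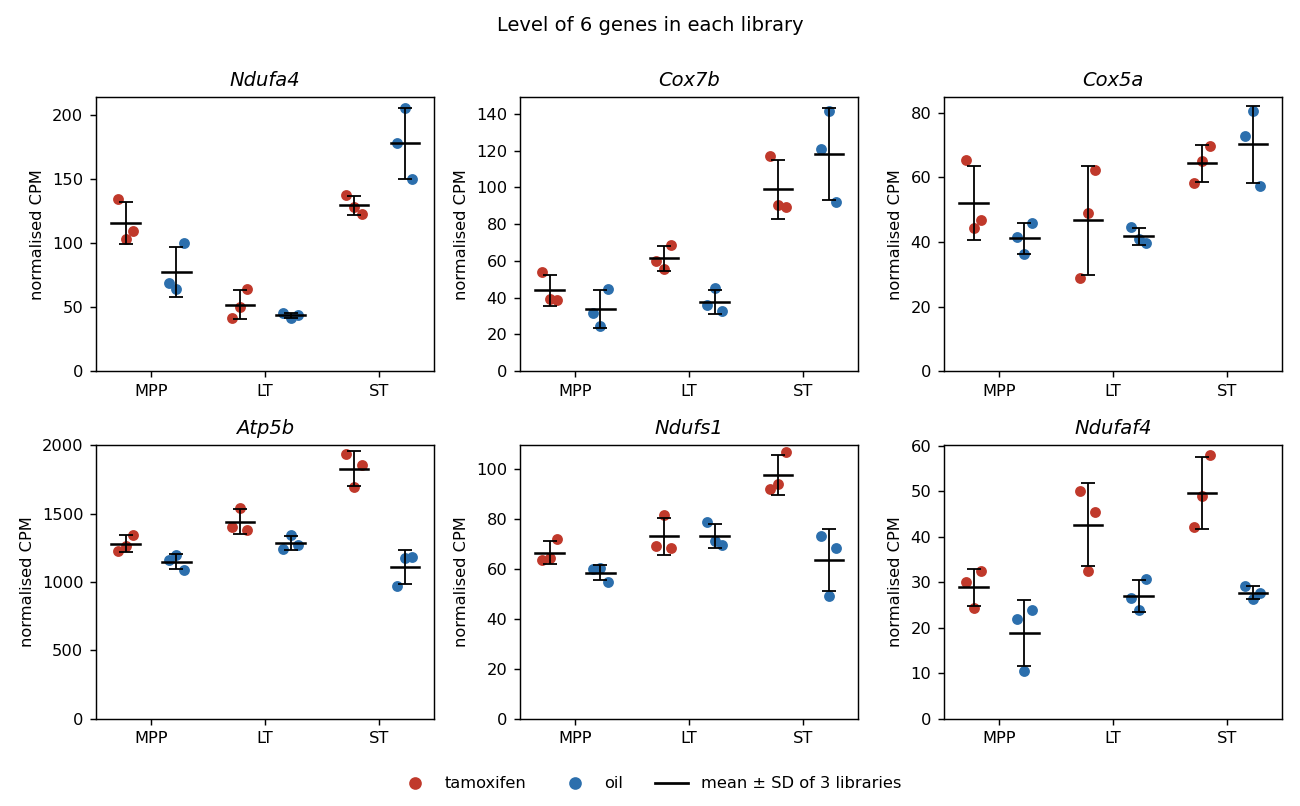
Normalised CPM (vertical axes, from 0) of Ndufa4, Cox7b, Cox5a, Atp5b, Ndufs1 and Ndufaf4 in every library, by population, with tamoxifen in red and oil in blue; black bars are means ± SD of 3 libraries. Ndufa4 has its lowest values in LT cells, Atp5b lies between 969 and 1340.2 in all oil libraries, and the tamoxifen points of Atp5b, Ndufs1 and Ndufaf4 in ST cells lie above all oil points.

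In ST cells given tamoxifen, 3 of the 80 genes were higher than in ST oil and 0 were lower (limma), while 6.01% of all genes were higher and 3.6% lower. At an unadjusted p below 0.05 there were 10 higher and 5 lower, against 25.1% of all genes in either direction, and edgeR and DESeq2 each called the same number as limma, 3 higher and 0 lower. Atp5b had 1939, 1693 and 1857 in ST tamoxifen normalised CPM, against 969, 1176 and 1186 in ST oil, a log2 fold change of 0.72 ± 0.11 with an adjusted p of 0.000221. Ndufs1 had 91.8, 93.9 and 107 in ST tamoxifen, against 72.9, 49.2 and 68.2 in ST oil, a log2 fold change of 0.63 ± 0.15 (adjusted p 0.00727). Ndufaf4, which encodes an assembly factor of complex I, had 42.1, 49.0 and 57.9 in ST tamoxifen, against 29.1, 26.3 and 27.7 in ST oil, a log2 fold change of 0.81 ± 0.23 (adjusted p 0.0259). All tamoxifen libraries exceeded all oil libraries for the 3 genes.

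Leaving out 1 ST library kept the call of Atp5b each time. Ndufs1 passed except without ST oil library B (adjusted p 0.0578). Ndufaf4 passed without ST tamoxifen library A, and gave adjusted p-values of 0.0522 to 0.128 without each of the other 5 ST libraries, 0.0511 when scaled to genes not encoded in mitochondria and 0.0535 with the length trend removed. Without LT tamoxifen library A in the shared fit, 9 genes passed: Atp5a1, Atp5d, Atp5g1 and Ndufa10 were then also higher, and Cox4i1 and Ndufa4 were lower. Quantile normalisation gave 3 higher and 1 lower (Ndufa4), and scaling to genes not encoded in mitochondria gave 2 higher and 1 lower (Ndufa4). The shares of all genes called in these altered fits are not given, so the counts are no result about the set.

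The rest of the set lay on both sides of 0 in ST cells, with 30 of 80 genes above it, against 50.5% of all genes, and a median log2 fold change of -0.11. In F1, 4 of the 5 genes had tamoxifen libraries that all lay above the oil libraries, although only Atp5b passed. Atp5a1 had 467, 390.1 and 368 in ST tamoxifen, against 289, 306 and 333 in ST oil (log2 fold change 0.39 ± 0.14, adjusted p 0.0618). Atp5d and Atp5c1 had log2 fold changes of 0.42 and 0.19, and Atp5e, the short one, -0.50 with overlapping groups.

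The medians of complex IV, complex I accessory, complex III and stalk and Fo genes lay below 0, with none of their genes called. Of complex I core genes 5 of 7 lay above 0, with a median of 0.18 and 1 called higher (Ndufs1). Of the 5 assembly factors 3 lay below 0, with a median of -0.04 and 1 called higher (Ndufaf4). In complex IV 10 of 13 genes lay below 0, with a median of -0.24. Of complex I accessory subunits 19 of 29 lay below 0, with a median of -0.24, and of complex III 5 of 8, with -0.25. Complex IV transcripts had a median of 645 bases, and length is described below. Ndufa4 had 138, 128 and 123 in ST tamoxifen, against 178, 206 and 149.9 in ST oil, a log2 fold change of -0.44 ± 0.17 (adjusted p 0.0914). For Cox4i1, Cox5b and Ndufa4 the groups did not overlap, with the tamoxifen libraries lower. Cox5a had 58.3, 65.0 and 69.7 in ST tamoxifen and 72.9, 80.7 and 57.3 in ST oil, which overlap, and a 95% interval of -0.54 to 0.31 for its log2 fold change. Over the set, groups were separate and higher for 8 genes and separate and lower for 5, against 14.8% and 12.2% of all genes.

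Length moved with this contrast as well. The 46 genes below 1000 bases had a median log2 fold change of -0.25 in ST tamoxifen over ST oil with 8 above 0, close to the median of -0.27 over 1336 other genes of that length. The 9 genes with 2000 bases or more had a median of 0.39, against 0.07 over other genes of that length. With the length trend removed Atp5b, Ndufs1, Ndufa9 and Uqcrfs1 were higher and none was lower (limma, 15 at an unadjusted p below 0.05), while 5.25% of 13693 genes were then higher and 3.16% lower. Erythroblast markers also moved with tamoxifen in ST cells: 5 of 15 were higher, and the 15 summed to 932 to 1312 normalised CPM in ST tamoxifen and 627 to 844 in ST oil, with none at 0 reads in a group. Their part in the ST results was not tested.

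In MPPs no gene of the set passed after tamoxifen (limma), where 0.0347% of all genes were higher and 0.0208% lower, and edgeR and DESeq2 on recovered reads also called 0. At an unadjusted p below 0.05, 7 of the 80 were higher and 0 lower, against 5.68% of all genes in either direction. The direction was shared by most: 73 of 80 genes lay above 0, against 50% of all genes, with a median log2 fold change of 0.25. Of 1336 other genes below 1000 bases, 784 lay above 0 with a median of 0.09, against 44 of 46 and 0.27 in the set. The part of length was not tested beyond the trend removal among the alternatives. For 24 genes the 3 tamoxifen libraries lay above the 3 oil libraries and for 0 below, against 7.66% and 7.23% of all genes. Levels of the 80 genes moved together between libraries, with a median pairwise correlation of 0.32 for deviations from group means. It was 0.21 without LT tamoxifen library A. Such counts are therefore not counts of independent genes, here and in the other comparisons.

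Ndufa4 had the smallest p in MPPs, with 134, 103 and 109 in MPP tamoxifen, against 69.1, 64.0 and 99.9 in MPP oil, a log2 fold change of 0.59 ± 0.17 (adjusted p 0.361). Without MPP oil library 3, the highest of its group, it was the 1 gene that passed. Cox5a had 65.3, 44.3 and 46.9 in MPP tamoxifen and 41.5, 36.2 and 45.8 in MPP oil, with 1 tamoxifen value below the highest oil value. Atp5b had 1227, 1261 and 1347 in MPP tamoxifen, against 1158, 1197 and 1088 in MPP oil, separate but close, with a log2 fold change of 0.16 ± 0.11. Over the 7 roles with more than 1 gene the medians ran from 0.19 (complex I core) to 0.34 (complex III), all above 0.

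MPP tamoxifen library 1, which held the most reads, was the highest of the 6 MPP libraries for 46 genes, and MPP oil library 2 the lowest for 34. The median over the set was 0.21 to 0.29 with 1 library at a time left out. Erythroblast markers summed to 386 to 1110 normalised CPM in MPP tamoxifen and 401 to 507 in MPP oil, with 2 of 15 higher. Their part in the MPP values was not tested.

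In LT cells no gene of the set passed after tamoxifen by limma or edgeR, while 0.139% of all genes were higher and 0.277% lower, and DESeq2 on recovered reads called 2 (Cox7b and Atp5g3, both higher). At an unadjusted p below 0.05, 7 were higher and 1 was lower, against 13.5% of all genes in either direction. Cox7b had 59.9, 55.5 and 68.7 in LT tamoxifen, against 36.0, 45.1 and 32.5 in LT oil, a log2 fold change of 0.69 ± 0.20 (adjusted p 0.101), with the groups separate. Across the set 53 of 80 genes lay above 0, against 48.1% of all genes, with a median log2 fold change of 0.12, and groups were separate and higher for 7 and lower for 1, against 9.04% and 9.36% of all genes.

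Library A of LT tamoxifen decided much of this. It was the lowest of its group for 61 of the 80 genes, while library C was the highest of the 6 LT libraries for 51. Cox5a shows it, with 28.7, 48.9 and 62.4 in LT tamoxifen, against 44.7, 41.1 and 39.7 in LT oil: library A lay below all oil libraries and libraries B and C above them. The median log2 fold change of the set was 0.32 without LT tamoxifen library A and -0.02 without LT tamoxifen library C. Atp5b did not follow this, with 1400.1, 1543 and 1376 in LT tamoxifen and 1240.0, 1340.2 and 1271 in LT oil, a log2 fold change of 0.16 ± 0.11 (adjusted p 0.533). Of 5 multipotent progenitor markers 1 was lower in LT tamoxifen and all 5 had an unadjusted p below 0.05, with a median log2 fold change of -1.06 and sums of 121 to 237 in LT tamoxifen and 244 to 438 normalised CPM in LT oil. None of 15 erythroblast markers passed, with sums of 2479 to 3177 in LT tamoxifen and 2172 to 2673 in LT oil. The part of these markers in the LT values was not tested.

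**Figure D4:**
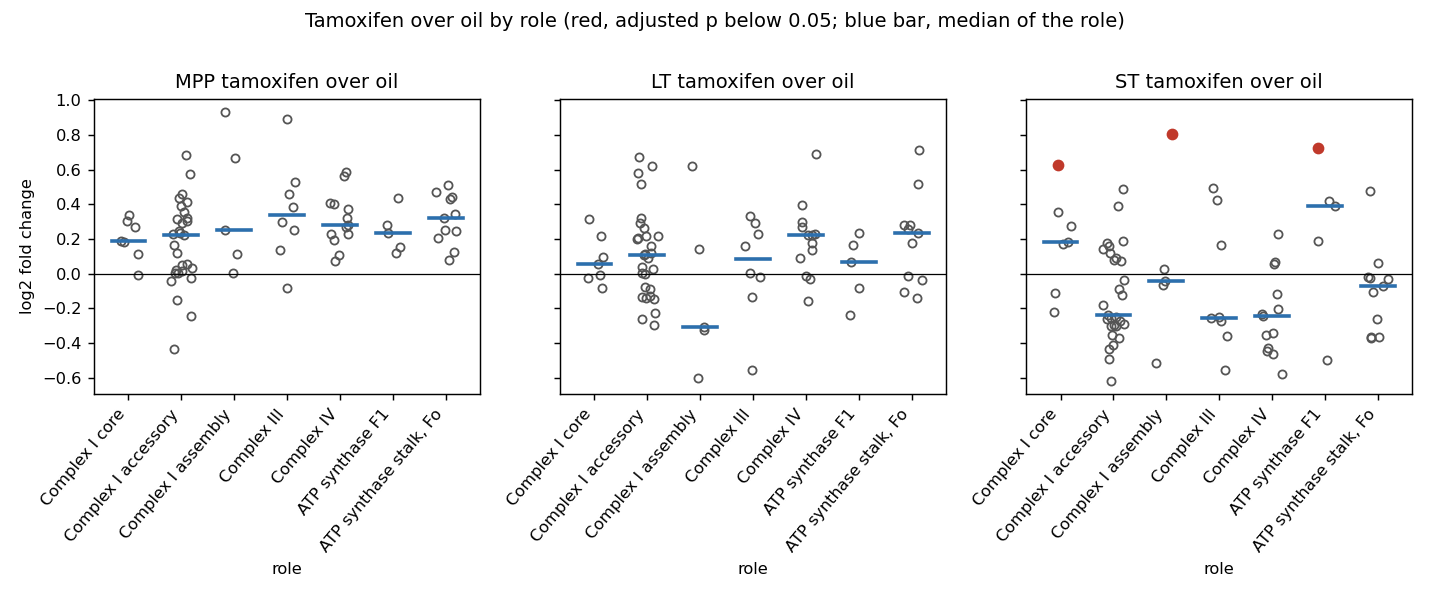
Log2 fold change of tamoxifen over oil (vertical axis) for the genes of 7 roles in MPP, LT and ST cells; each circle is a gene, red circles passed at an adjusted p below 0.05, and blue bars are medians of the role. In MPPs every role median lies above 0, and in ST cells the medians of complex I core (0.18) and F1 (0.39) lie above 0. In ST cells those of complex I accessory (-0.24), complex I assembly (-0.04), complex III (-0.25), complex IV (-0.24) and stalk and Fo (-0.07) lie below.

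Averaged over the 3 populations, the tamoxifen effect passed for 6 genes, all higher, while 5.47% of all genes were higher and 3.41% lower. Unadjusted p-values below 0.05 were found for 13 higher and 2 lower genes, against 24.1% of all genes in either direction. In the same mean effect 5 of 15 erythroblast markers were higher and 4 of 5 multipotent progenitor markers lower (median -0.62), and their part in these calls was not tested. Atp5b had a mean log2 effect of 0.35 ± 0.06 and Ndufaf4 of 0.70 ± 0.13, with adjusted p-values of 0.000837 and 0.00173 by limma. Both passed under each of the 26 alternatives run for them. Of the set, they were the 2 genes whose tamoxifen libraries lay above the oil libraries in all 3 populations. Among all genes 7.66% did so in MPPs, 9.04% in LT cells and 14.8% in ST cells, and the share in all 3 was not counted. Ndufaf4 had 29.9, 24.4 and 32.4 in MPP tamoxifen and 22.0, 10.5 and 23.9 in MPP oil. Its LT values were 50.1, 32.4 and 45.6 in LT tamoxifen and 26.6, 23.8 and 30.8 in LT oil.

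The other 4 genes were Atp5c1 (0.23 ± 0.07), Ndufa10 (0.35 ± 0.10), a complex I accessory gene related to nucleoside kinases, the c subunit gene Atp5g1 (0.39 ± 0.12) and Ndufs1 (0.27 ± 0.08). Their calls rested more on single libraries. The set had 14 called genes without LT tamoxifen library A, 2 without LT oil library C, 3 without MPP oil library 1 or 2, and 4 without any 1 of MPP tamoxifen library 1, LT tamoxifen library B, LT oil library A or B, ST tamoxifen library C or ST oil library B. Scaling to genes not encoded in mitochondria left 3 higher and 1 lower, edgeR gave 5 higher and 1 lower, DESeq2 gave 8 higher and 1 lower, and the lower gene was Atp5sl each time. Quantile normalisation left 2 higher, Atp5b and Ndufaf4. The shares of all genes called in these altered fits are not given here, so the counts show only how the calls varied.

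Whether tamoxifen acted differently between populations was tested as a difference of effects. By limma and by edgeR no gene passed for ST minus LT, ST minus MPP or LT minus MPP, and at an unadjusted p below 0.05 limma had 14, 13 and 1 genes, against 12.9%, 12.1% and 5.6% of all genes. Over all genes, 0.0416% were higher and 0.0139% lower for ST minus LT, 0.00694% and 0% for ST minus MPP, and 0% in both directions for LT minus MPP. Ndufa4 had the smallest p for ST minus MPP, at -1.03 ± 0.24 (adjusted p 0.114). Atp5b had the smallest for ST minus LT, at 0.56 ± 0.15 (adjusted p 0.108), and Ndufaf2 for LT minus MPP, at -0.79 ± 0.39 (adjusted p 0.867). DESeq2 called 1 gene for ST minus LT, 2 for ST minus MPP and 0 for LT minus MPP. Without LT tamoxifen library A, limma called 2 genes for ST minus LT and 4 for ST minus MPP, and without ST oil library C it called 1 (Ndufa4) for ST minus MPP.

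Several subunits have isoform genes. Of the 3 genes for subunit c of Fo, which encode the same mature protein, Atp5g3 averaged 111 normalised CPM per 1000 bases, Atp5g2 90.9 and Atp5g1 11.5. Cox4i1 averaged 126 per 1000 bases and its oxygen-regulated isoform Cox4i2 2.35, with 100 reads of Cox4i2 in all 18 libraries together. Cox6b1 averaged 62.0 and Cox6b2, known from testis, 15.8.

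In LT cells Atp5g1 had 44.5, 78.0 and 90.4 in LT tamoxifen and 56.4, 62.9 and 51.4 in LT oil, and in ST cells 68.7, 78.7 and 65.4 in ST tamoxifen and 55.1, 51.5 and 45.6 in ST oil normalised CPM. Its tamoxifen libraries all exceeded its oil libraries in ST cells. Cox7a2 and Cox7a2l, related in sequence, averaged 39.2 and 87.5 per 1000 bases. Cox7a2l, which joins complexes III and IV and of which C57BL/6 mice carry a shortened variant, was higher in ST oil than LT oil by 0.76 ± 0.22 and had -0.31 with overlapping groups in ST tamoxifen over oil.

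Other genes of the pathway were followed as lists. Of 6 complex II genes, 1 was higher in ST tamoxifen than in ST oil, the flavoprotein gene Sdha, by 0.55 (limma adjusted p 0.00766). Of 7 genes for cytochromes and electron carriers, Gpd2, the mitochondrial glycerol phosphate dehydrogenase, was higher there by 0.54, and in the mean effect Gpd2 and cytochrome c (Cycs) were higher by 0.26 and 0.41. Of 22 further assembly factors in the table, 1 was lower in ST tamoxifen, Cox16, with a log2 fold change of -1.16. None of 9 coenzyme Q genes or of 12 regulators, among them Nrf1, Gabpa, Yy1, Esrra, Ppargc1a and Tfam, passed in a tamoxifen comparison by limma. In ST cells 1 and 3 of them had an unadjusted p below 0.05.

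In MPP oil against ST oil, 5 of the 12 regulators were higher and 0 lower, against 16.8% and 13.9% of all genes. The 5 were Ppargc1a, a coactivator of mitochondrial genes, at 1.33, its relative Pprc1 at 0.57, both subunit genes of the ETS factor GABP, Gabpa at 0.50 and Gabpb1 at 0.46, and Yy1 at 0.43 (log2 fold changes). The 12 regulators had a median log2 fold change of 0.04, with 6 above 0. Of genes outside the set with 2000 bases or more, 24.0% were higher and 7.32% lower in this contrast. The part of length was not tested for the regulators. In ST oil against LT oil, Gabpa (-0.37) and Pprc1 (-0.78) were lower and Gabpb1 (0.40) was higher, against 16% and 12.5% of all genes.

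Atpif1, which encodes the inhibitor of ATP hydrolysis by ATP synthase, had 143, 153 and 106 in ST oil, against 56.2, 61.5 and 55.6 in LT oil, a log2 fold change of 1.18 (limma adjusted p 2.22e-05). Its tamoxifen comparisons did not pass. The 13 mitochondrially encoded subunits did not pass in any of the comparisons by limma, and 3 of them had an unadjusted p below 0.05 in LT tamoxifen over oil. They summed to 15149 to 45810 normalised CPM in LT tamoxifen, with library A at the top, and 14361 to 15385 in LT oil, and all 13 lay above 0 in that comparison, with a median log2 fold change of 0.67.

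Promoters were read for 65 of the 80 genes that matched the RefSeq promoter table (GRCm38.p6), over the 250 bases before the annotated start. They are shown for Atp5b and Ndufaf4, higher after tamoxifen, and for Ndufa4 and Atp5k, higher in ST oil than in LT oil. Capitals mark matches to the NRF1 motif, GCGC and again GCGC with 2 free bases between, and each sequence runs 5′ to 3′ on the strand of its gene.
Atp5b, chr10:128083057-128083306, plus strand: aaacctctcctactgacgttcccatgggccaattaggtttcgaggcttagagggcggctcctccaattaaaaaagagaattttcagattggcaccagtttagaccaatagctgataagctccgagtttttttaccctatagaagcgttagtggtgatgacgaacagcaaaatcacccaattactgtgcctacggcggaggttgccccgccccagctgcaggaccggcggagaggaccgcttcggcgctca
Ndufaf4, chr4:24897833-24898082, plus strand: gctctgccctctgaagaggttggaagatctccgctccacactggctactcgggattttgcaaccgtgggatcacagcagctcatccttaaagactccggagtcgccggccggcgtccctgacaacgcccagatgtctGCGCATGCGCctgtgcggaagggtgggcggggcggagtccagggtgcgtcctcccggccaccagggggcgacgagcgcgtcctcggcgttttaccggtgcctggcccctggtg
Ndufa4, chr6:11907451-11907700, minus strand: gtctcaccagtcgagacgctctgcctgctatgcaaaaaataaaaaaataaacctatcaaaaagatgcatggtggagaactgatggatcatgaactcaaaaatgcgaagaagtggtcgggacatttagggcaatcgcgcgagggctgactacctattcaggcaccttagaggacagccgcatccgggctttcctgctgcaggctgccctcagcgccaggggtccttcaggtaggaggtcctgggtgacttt
Atp5k, chr5:108434400-108434649, minus strand: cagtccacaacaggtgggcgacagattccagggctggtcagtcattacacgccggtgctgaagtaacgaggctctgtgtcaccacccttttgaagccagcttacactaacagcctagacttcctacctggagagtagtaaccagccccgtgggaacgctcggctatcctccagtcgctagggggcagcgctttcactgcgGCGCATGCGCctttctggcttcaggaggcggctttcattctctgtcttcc

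In Ndufaf4 the NRF1 match begins 113 bases before the start, and in Atp5k 50 bases before it. Atp5b and Ndufa4 held none of the motifs searched in this window, which says only that these letters are not there. Over the set, 14 of 65 genes (21.5%) held the NRF1 motif on either strand. The shares were 11.7% of 9279 other genes of the deposited table and 5.64% of all 27025 genes of the promoter table. The ETS motif CCGGAAG was found in 12 of 65 (18.5%), against 15.4% and 7.83%, the YY1 motif AAGATGGCG in 1 (1.54%, Atp5j), against 1.4% and 0.71%, and the palindromic estrogen response element, GGTCA and TGACC with 3 free bases between, in 0, against 0% and 0.0666%. Atp5h and Cox6a1 held both NRF1 and ETS matches, which did not overlap. These matches are a description of letters and not of binding.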

How the data were processed

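The authors deposited 1 table of normalised values (signal) for 14419 genes in 18 libraries. The submitters' processing notes name the build NCBIM37 and, as tools, cutadapt, RSEM 1.17, Picard and limma. They state neither the scaling nor the annotation nor the strand setting. The labels' protocols name the Picopure kit for the RNA and the Ovation V2 system for amplified cDNA. Each value is a whole read number, plus an offset of 0.5, times a constant of the library, in 100% of values (tolerance 0.001 read), so values are called normalised CPM. These reads may be rounded estimates, and rest on amplified cDNA without molecular identifiers.

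The table was fitted whole with limma 3.58.1 in R 4.3.3 on log2(value + 1), a scale that understates changes of low genes, with 1 mean for each of 6 groups, trended and robust (statmod 1.5.0) moderated variances and Benjamini-Hochberg adjustment over 14419 genes at 0.05. No low-value filter was added, and all 80 genes were tested. The values of 1 of them are not reported here singly. Errors after ± are SE for fold changes, and intervals are 95%. Where the labels do not say that libraries came from separate mice, p-values measure the spread between libraries. Principal transcript lengths came from GENCODE M21, for 13693 genes and all 80 of the set, and the length trend was removed by a spline over all genes. A symbol's row was matched by its gene identifier.

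Alternatives were a pseudocount of 0.5, a value of at least 5 in 3 or more libraries, only the groups compared, quantile normalisation, scaling to genes not encoded in mitochondria, edgeR 4.0.16 and DESeq2 1.42.0 on recovered reads, length-trend removal, each library left out and a replicate block. Leaving LT tamoxifen library A out of the shared fit was added after seeing the data. The scripts were tested on simulated data. Genes are named by a rule: Ndufa4, Cox5a and Atp5b, up to 8 called genes per direction and comparison by smallest p, or the gene with the smallest p where none passed, the highest gene of each role and the isoform families. Others are named where a count was small or for contrast, after their values were seen. The genes and lists were chosen with earlier results of these data known.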

Additional observations from a re-analysis of the deposited data

Results flagged for a closer look

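In 3 genes the tamoxifen and oil libraries did not overlap in 2 populations, with opposite directions, which marked them for a closer look. Among all genes, tamoxifen libraries lay apart and higher for 7.66% in MPPs, 9.04% in LT cells and 14.8% in ST cells. They lay apart and lower for 7.23%, 9.36% and 12.2%, in the same order. How many of all genes lay apart in opposite directions was not counted, so these genes are not shown to be unusual. The test of the difference between the effects did not pass for any of the 3 genes.

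Ndufa4 had log2 fold changes of 0.59 in MPPs and -0.44 in ST cells, a difference (ST minus MPP) of -1.03 with a limma adjusted p of 0.114. It passed with only the 4 groups compared, with quantile normalisation, with DESeq2, without LT tamoxifen library A and without ST oil library C. Cox5b had 0.41 in MPPs and -0.36 in ST cells, a difference of -0.77 (adjusted p 0.253). Ndufb3, a complex I accessory gene, had 0.62 in LT cells and -0.41 in ST cells, a difference (ST minus LT) of -1.03 (adjusted p 0.199). No cause was tested.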

How the results depend on the processing

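With 1 library left out at a time, the number of genes called among the 80 was 0 to 1 for tamoxifen in MPPs (1 without MPP oil library 3), 0 to 0 in LT cells, 1 to 9 in ST cells, 2 to 14 for the mean effect, 0 to 2 for ST minus LT, 0 to 4 for ST minus MPP, 0 to 0 for LT minus MPP, 37 to 58 for ST oil over LT oil, 2 to 9 for MPP oil over LT oil and 55 to 66 for MPP oil over ST oil. Of the other alternatives, DESeq2 moved 3 counts by over 1.5 times, to 2 for tamoxifen in LT cells, 1 for ST minus LT and 2 for ST minus MPP. Quantile normalisation gave 2 for the mean effect and 1 for ST minus MPP, and only the groups compared gave 1 for ST minus MPP and 11 for MPP oil over LT oil. Scaling to genes not encoded in mitochondria gave 8 for MPP oil over LT oil, and it set the median of all genes at -0.15 in MPP oil over ST oil, against -0.05 without it. Removing the length trend gave 29 for ST oil over LT oil and 38 for MPP oil over ST oil. Each cause was not tested beyond what an alternative itself changes. Over all alternatives, each library left out included, 159 of 183 comparisons of these counts stayed within 1.5 times. That number includes tamoxifen in MPPs, tamoxifen in LT cells and the differences of effects, with 0 called in the main fit. There, 0 against 0 was scored as unchanged. Shares of all genes called in the altered fits are not given, except for some with the length trend removed, so these counts describe only how the calls depended on processing.

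Single genes were followed in the comparisons that named them, and Ndufa4, Cox5a and Atp5b also in tamoxifen over oil in each population. Among these the direction turned 3 times, each in a comparison where the gene was not called. Atp5b in LT cells was -0.046 with quantile normalisation, and Cox5a in ST cells was 0.093 with the length trend removed. Cox5a in LT cells was -0.15 to 0.40 with 1 library left out (the lowest without LT tamoxifen library C). Calls of Atp5b in ST cells held under all 16 alternatives and those of Ndufs1 under 15. Only a number or letter in the titles links libraries. For tamoxifen and oil pairs of the same number the correlations of deviations from the group means were 0.0827, -0.00307 and 0.126 in MPPs, 0.0115, -0.0154 and -0.0326 in LT cells and 0.112, -0.000691 and -0.00527 in ST cells. For ST and LT libraries of the same letter they were 0.0534, 0.0518 and 0.101 in oil and 0.137, 0.0756 and 0.0893 in tamoxifen, and each of these libraries correlated best with the library of its own letter in the other population and the same treatment, a hint from the data and not the design. With the number as a replicate block the counts were 0 in MPPs, 0 in LT cells, 4 in ST cells, 5 for the mean effect, 0 for each difference of effects and 51 for ST oil over LT oil. No paired analysis was possible for MPP oil against LT or ST oil because their libraries carry different numbering. The SE of the log2 fold change between a pair of groups was 0.51 for Uqcrq and 0.47 for Cox4i2, and the part of depth was not tested.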
